A study of Mus musculus with 12 samples.

Results

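The 31 genes described here encode the mitochondrial pyruvate carrier, the pyruvate dehydrogenase complex with its kinases and phosphatases, enzymes of the citrate cycle, and cytosolic and shuttle enzymes that exchange metabolites with the cycle. They were taken as the rows of the count table whose gene symbol stood on a list of 31 names. All 31 were found, each in 1 of 55401 rows, and all 31 were among the 17699 genes that passed the filter on low counts. The messenger RNA came from mouse left ventricle, in 12 libraries of 4 groups with 3 libraries each. Wild-type mice and mice with the T497A change in Prkca, which replaces a threonine of protein kinase C alpha by alanine, underwent either transverse aortic constriction (TAC) or a sham operation. TAC narrows the aortic arch, with a 27-gauge needle as the gauge of the remaining width, and thereby loads the left ventricle with pressure. The mice of all 4 groups were operated on at 10 weeks of age, and the heart was taken 1 week later, at 11 weeks. The labels name neither the zygosity nor any Cre or transgene, and they leave unsaid whether every library stands for a separate mouse. The p-values therefore speak of the spread among these libraries, which may be technical.

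Pyruvate enters mitochondria through a carrier of paired subunits, and the pyruvate dehydrogenase complex turns it into acetyl-CoA. Kinases switch the complex off by phosphorylating its alpha subunit, and phosphatases switch it on again, which sets how much of the acetyl-CoA of the heart comes from glucose and lactate rather than from fatty acids. Citrate synthase joins acetyl-CoA to oxaloacetate, and the dehydrogenases of the cycle then pass electrons to the respiratory chain that supplies the ATP for contraction.

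Each library held between 58932759 and 72594085 counts, and levels are given in CPM, the read count scaled to a common effective library size. The tissue label names left ventricle and the cell type label names cardiomyocyte. All 20 cardiomyocyte markers were detected in each group, and so were all 10 markers of fibroblasts, of endothelial cells and of macrophages, so the counts are read as those of heart tissue with several cell types. Of 8 atrial markers 7 were tested, and 1 of the 8 was at 0 in all wild-type sham libraries. Their summed level was 152 to 353 CPM in wild-type sham and 2615 to 2942 CPM in wild-type TAC. It was 349.6 to 1079 CPM in T497A sham, with replicate 3 the highest, and 271 to 565 CPM in T497A TAC. The sum in wild-type TAC was mostly Nppa. Scaled to library totals, Nppa had a mean of 81.6 CPM in wild-type sham and 3022 CPM in wild-type TAC. Nppa, Nr2f2 and Dkk3 had their highest means in wild-type TAC. Myl7 (126 CPM), Myl4 (150 CPM), Sln (30.2 CPM), Bmp10 (10.8 CPM) and Stard10 (35.5 CPM) had theirs in T497A sham. Mitochondrially encoded genes took 19.1% to 20.99% of counts in wild-type sham, 9.67% to 14.7% in wild-type TAC, 15.97% to 17.3% in T497A sham and 19.2% to 19.8% in T497A TAC. Xist, which coats and silences the inactive X chromosome, was measured at 159.9 to 215 CPM in the 3 T497A sham libraries and at or below 0.751 CPM in all others. The Y-linked Ddx3y stood at or below 0.396 CPM in the same 3 libraries and at 73.6 CPM or more elsewhere. Any comparison that uses the T497A sham group therefore also sets libraries without Y-linked transcripts against libraries with them. Genotype or surgery and this difference cannot be told apart there. Prkca itself was measured at 31.1 to 35.7 CPM in T497A sham and at 42.2 to 51.0 CPM in the other groups, and a count does not show the T497A change. Of the genes described, Pdha1, Idh3g and Pdk3 lie on chromosome X.

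After TAC in wild type, 29 of the 31 genes fell and 1, the kinase gene Pdk3, rose, in edgeR's quasi-likelihood test, although 5 of the 29 (Idh1, Pdhb, Pdhx, Pdk1 and Pdp1) changed sign when libraries were scaled on cardiomyocyte markers. The p-values were adjusted by the Benjamini-Hochberg method across every gene tested, with a threshold of 0.05. Of all genes tested, 24% were called lower and 25.9% higher in this comparison. The median log2 fold change of the 31 genes was -0.85, beside 0.028 over all genes. By at least 1.5-fold, 26 genes fell and 1 rose, against 11.1% and 17.5% of all genes. The wild-type TAC libraries lay wholly below the wild-type sham libraries in 30 genes and wholly above in 1, against 29% and 31.2% of all genes. The 1 gene not called was Aco1, the cytosolic aconitase that doubles as an iron sensor (log2 fold change -0.15 ± 0.06, adjusted p = 0.0677). In 26 of the 31 genes, all 3 wild-type TAC libraries lay below all 9 other libraries, and in 1 above them, against 17.3% and 18.1% of all genes tested. The library of wild-type TAC replicate 2 had the lowest level of all 12 in 30 of the 31 genes.

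The share of all counts that fell on the 31 genes was 1.94% to 1.97% in the wild-type sham libraries, 1.19% to 1.48% after TAC in wild type, 2.04% to 2.05% in T497A sham and 1.78% to 1.82% in T497A TAC. None of these ranges overlapped, and the exact two-sided permutation test of each of the 5 pairs of groups compared gave p = 0.1, the smallest that 3 against 3 libraries allow. As a share of the counts outside mitochondrially encoded genes, the 31 genes took 2.43% to 2.48% in wild-type sham and 2.44% to 2.48% in T497A sham, which overlapped (exact permutation p = 0.7). That share was 1.32% to 1.73% in wild-type TAC and 2.21% to 2.27% in T497A TAC. The summed level of the 20 cardiomyocyte markers was likewise lowest in wild-type TAC and next lowest in T497A TAC, while the sham groups overlapped, at 104463 to 112863 CPM in wild-type sham, 56203 to 65544 CPM in wild-type TAC, 110163 to 112877 CPM in T497A sham and 93861 to 99511 CPM in T497A TAC. Of these markers, 15 of 20 fell and 1 rose after TAC in wild type, with a median log2 fold change of -0.74, and 7 fell and 5 rose in T497A. The 10 fibroblast markers summed to 2946 to 3315 CPM in wild-type sham and 9651 to 19159.9 CPM in wild-type TAC. They summed to 2958 to 3808 CPM in T497A sham and 3180.1 to 4430.5 CPM in T497A TAC. The 10 macrophage markers summed to 324 to 393 CPM, 636 to 981 CPM, 377 to 453 CPM and 443 to 474 CPM in the same 4 groups. The fibroblast sum in wild-type TAC was mostly Col1a1, Col1a2, Col3a1 and Postn. Scaled to library totals, their means went from 146, 210, 301 and 51.6 CPM to 3171, 3540, 4971 and 2189 CPM with TAC in wild type. Pdgfra went from 49.8 to 85.3 CPM and Gsn from 1470 to 678 CPM. Of the 10 fibroblast markers, 9 were called higher and 1 lower in that comparison. The highest fibroblast and macrophage sums and the lowest cardiomyocyte sum were those of wild-type TAC replicate 2. In whole tissue, fewer cardiomyocytes and less transcript of the 31 genes per cardiomyocyte cannot be told apart.

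Set against the cardiomyocyte markers, the summed counts of the 31 genes were 18.6 to 20.1 per 100 marker counts in wild-type sham, 17.5 to 20 in wild-type TAC, 19.1 to 19.7 in T497A sham and 18.97 to 19.4 in T497A TAC. These ranges overlapped, and the exact permutation test gave p = 0.6 for TAC against sham in wild type and p = 0.9 for T497A against wild type after TAC. The marker sum is weighted towards the most abundant markers. Scaled to library totals, Myh6 and Atp2a2 had the highest means of the 20. They went from 28042 to 16172 CPM and from 18986 to 10567 CPM with TAC in wild type. On that scale Actn2, Tnnc1, Mybpc3, Csrp3, Nrap and Des were higher after TAC in wild type, and the other markers lower. Whether this ratio follows the cardiomyocyte content of the tissue was not tested. When each library was scaled so that the mean log2 level of the 20 markers was equal in all libraries, 21 genes were still called lower and 3 (Pdk3, Pdk1 and Aco1) higher after TAC in wild type, with a median log2 fold change of -0.22. That scaling moved the median of all genes to 0.67 and left the gap between the 31 genes and all genes at -0.89, beside -0.88 with the usual scaling. A change of scaling shifts every gene by nearly the same amount. This gap could therefore hardly move under any scaling, and its steadiness is no check of the result. With library totals in place of TMM factors, 25 genes were called lower and 2 higher, the median was -0.52 and that of all genes 0.36, a gap of -0.88. For T497A against wild type after TAC, marker scaling left 10 genes called higher and 5 lower (median 0.074, all genes -0.60), and for the interaction 7 called higher and 6 lower (median 0.064, all genes -0.63). The gap between the median of the 31 genes and that of all genes was 0.66 with the usual scaling and 0.68 on the marker scale for T497A against wild type after TAC. For the same reason this gap could hardly differ between the scalings. The part of the cardiomyocyte content of the tissue in these differences was not tested.

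**Figure D1:**
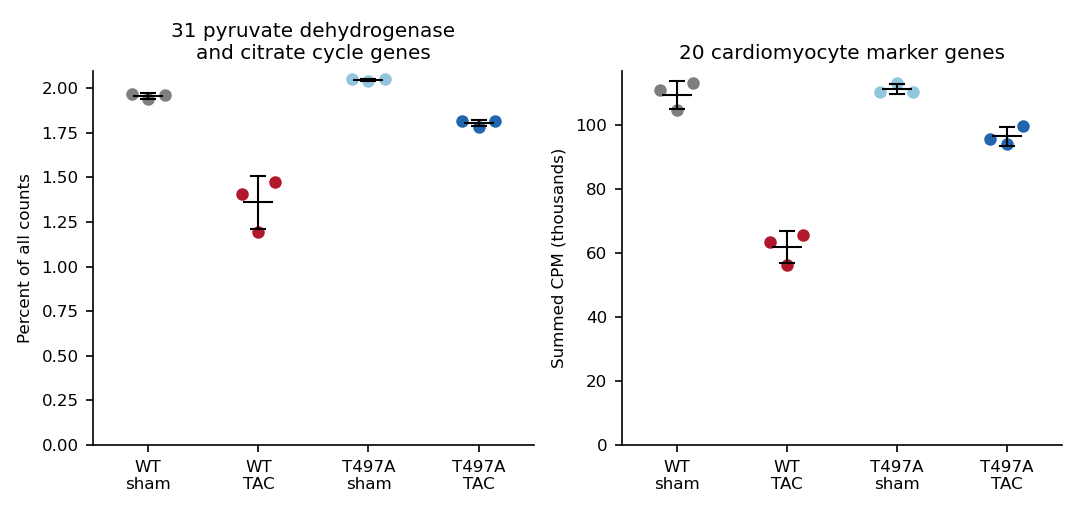
Left, percent of all counts in each library that fall on the 31 genes. Right, summed CPM of 20 cardiomyocyte marker genes, in units of 1000 CPM. Points are libraries, bars the mean and SD of 3 libraries in each group. Both measures are lowest in the 3 wild-type TAC libraries (1.19% to 1.48% of counts) and next lowest in the 3 T497A TAC libraries (1.78% to 1.82%).

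**Figure D2:**
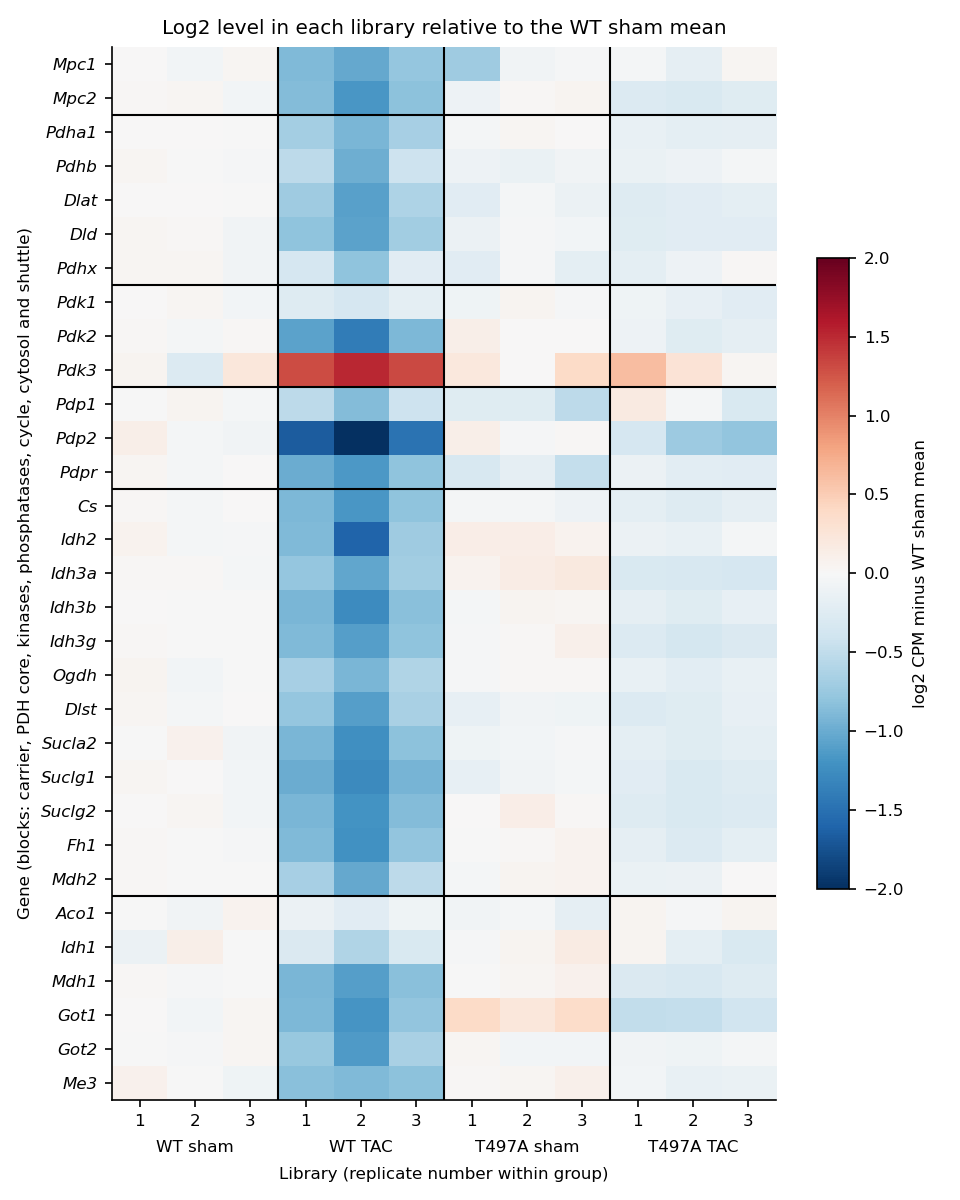
Level of each of the 31 genes in each of the 12 libraries, as log2 CPM minus the mean of the 3 wild-type sham libraries, with rows ordered by role. Blue is lower and red higher than wild-type sham. The wild-type TAC columns are blue in all rows except that of Pdk3, with replicate 2 the darkest, and on the scale of the cardiomyocyte markers Aco1, Idh1, Pdhb, Pdhx, Pdk1 and Pdp1 would change sign there.

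In T497A, TAC lowered 8 of the 31 genes and raised none, against 11.4% of all genes called lower and 12.9% called higher. These were Mpc2, Pdp2, Idh3a, Idh3g, Suclg2, Mdh1, Got1 and Me3, and the median of the 31 log2 fold changes was -0.17, beside 0.0035 over all genes. The T497A TAC libraries lay below all T497A sham libraries in 18 of the 31 genes and above them in 1 (Aco1), against 19.8% and 20.9% of all genes. Got1 and Pdp2 fell by at least 1.5-fold and 0 genes rose by as much, against 3.96% and 6.65% of all genes. The count of calls was 18 without wild-type TAC replicate 2, which enters the shared estimate of the spread, and 5 without T497A sham replicate 2 or 3 or T497A TAC replicate 2. Idh3a, Idh3g, Suclg2, Mdh1 and Got1 stayed called whichever single library was left out, and Mpc2, Pdp2 and Me3 did not. In the same comparison 4 of the 7 atrial markers tested were called lower and 1 higher, and their part in these values was not tested.

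The difference between the genotypes in their response to TAC, tested as the interaction of genotype and surgery, was called for 28 of the 31 genes. It was positive for 27 genes and negative for Pdk3, against 15.3% and 14.2% of all genes. A positive value means that the log2 fold change with TAC was lower in wild type than in T497A. On the marker scale Aco1, Idh3a, Idh3g, Ogdh, Pdha1 and Pdhx, called here, changed sign. The median interaction was 0.67 on the log2 scale, beside -0.012 over all genes, and it reached 1.5-fold for 22 positive values and 1 negative value, against 8.03% and 10.0% of all genes. Idh1, Pdk1 and Got1 were not called, and the calls of Aco1, Pdhx and Idh2 were lost in 7, 9 and 3 of the 12 fits with 1 library left out. Compared directly after TAC, the T497A libraries held higher levels than wild type for 28 of the 31 genes and a lower level of Pdk3, against 17.8% of all genes called higher and 17.9% called lower, and on the marker scale 10 were higher and 5 lower. The median log2 difference was 0.65 beside -0.017 over all genes. By at least 1.5-fold, 19 genes were higher and 1 lower, against 6.71% and 10.1% of all genes, and the groups did not overlap for 28 higher and 1 lower, against 24.2% and 25.3%. Idh1 and Pdk1 were not called, and the calls of Aco1 and Pdhx were each lost in 7 of the 12 fits with 1 library left out. These 4 comparisons share libraries and are not independent of one another. After sham, 1 gene (Got1) was higher and 1 (Pdpr) lower in T497A than in wild type, against 2.99% and 2.80% of all genes. Neither reached 1.5-fold, which 1.70% and 1.16% of all genes did, and the groups did not overlap for 3 genes higher and 5 lower, against 12.9% and 13.5%. Both calls were lost when any 1 of the wild-type sham libraries, T497A sham replicate 1 or 3, wild-type TAC replicate 1 or T497A TAC replicate 2 was left out.

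The pyruvate carrier is built of Mpc1 and Mpc2. Mpc2 stood at 298, 302 and 285 CPM in wild-type sham and 162, 131 and 167 CPM in wild-type TAC, and in T497A at 275, 301 and 308 CPM after sham and 243, 237 and 249.7 CPM after TAC. The TAC libraries lay below the sham libraries in both genotypes, with a fall of 0.94 ± 0.08 on the log2 scale in wild type (adjusted p = 3.8e-07) and of 0.27 ± 0.08 in T497A (adjusted p = 0.0209). Mpc1 stood at 129, 123 and 131 CPM in wild-type sham, 69.2, 62.4 and 74.1 CPM in wild-type TAC, 77.9, 121 and 125 CPM in T497A sham and 124, 113 and 130.3 CPM in T497A TAC. It fell by 0.89 ± 0.15 in wild type (adjusted p = 0.000363; -0.26 and not called on the marker scale), while in T497A the groups overlapped (log2 fold change 0.18 ± 0.15). The T497A sham replicate 1 library was low in Mpc1, below the other 2 libraries of its group and near the wild-type TAC values, and not in Mpc2. The interaction was 1.07 ± 0.21 for Mpc1 and 0.67 ± 0.11 for Mpc2. The value for Mpc1 includes that low T497A sham library. Across the alternatives run, the log2 fold change of Mpc1 with TAC in T497A ranged from -0.0054 to 0.30. Of the exon bases of Mpc1, 23.1% are also covered by a gene on the other strand, and the strand setting of the counting is not given in the sources used here.

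All 5 genes of the pyruvate dehydrogenase core fell after TAC in wild type, with log2 fold changes from -0.85 to -0.44, although Pdhb and Pdhx changed sign on the marker scale (0.0068 and 0.19); none of the 5 was called in T497A. Pdha1, which encodes the alpha subunit that the kinases phosphorylate (chromosome X, 160122209 to 160138413 of GRCm38), stood at 1222, 1216 and 1203 CPM in wild-type sham and 754, 646 and 770.1 CPM in wild-type TAC. In T497A it stood at 1184, 1243 and 1224 CPM after sham and 1098, 1058 and 1073 CPM after TAC. The fall was 0.75 ± 0.07 in wild type (adjusted p = 8.42e-07), and the change of -0.18 ± 0.07 in T497A missed the threshold (adjusted p = 0.0752) although its TAC libraries all lay below its sham libraries. Of the exon bases of Pdha1, 16.1% are also covered by the oppositely oriented Map3k15.

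Pdhb, the beta subunit that completes the decarboxylase, stood at 644, 623 and 618 CPM in wild-type sham and 438, 319 and 472 CPM in wild-type TAC. The 6 T497A libraries overlapped between surgeries, at 589, 571 and 600.2 CPM after sham and 575, 584 and 611 CPM after TAC. Dlat, the acetyltransferase that forms the core of the complex, stood at 618, 618 and 611 CPM in wild-type sham, 375, 289 and 401 CPM in wild-type TAC, 527, 602 and 570.0 CPM in T497A sham and 517, 528 and 538 CPM in T497A TAC. Pdhb fell by 0.62 ± 0.11 and Dlat by 0.79 ± 0.10 in wild type (adjusted p = 0.000219 and 8.86e-06), whereas the T497A groups overlapped for both. Dld, the dehydrogenase that pyruvate dehydrogenase shares with the 2-oxoglutarate and branched-chain complexes, stood at 614, 605 and 568 CPM in wild-type sham, 341, 282 and 367 CPM in wild-type TAC, 550.3, 587 and 571 CPM in T497A sham and 503, 509.8 and 509.7 CPM in T497A TAC. It had the steepest fall of the 5 in wild type (0.85 ± 0.08, adjusted p = 1.02e-06).

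Pdhx, which anchors the dehydrogenase Dld to the core, moved least. Its level was 162, 163 and 152 CPM in wild-type sham, 126, 90.9 and 135 CPM in wild-type TAC, 136, 157 and 139 CPM in T497A sham and 139, 147 and 162 CPM in T497A TAC. The wild-type TAC libraries lay below the wild-type sham libraries (a fall of 0.44 ± 0.12, adjusted p = 0.00858), and replicate 2 stood apart from the other 2. Without that library the log2 fold change was -0.28. The ratio of Pdhx to Dlat per length, which does not depend on how libraries are scaled, was 0.35 higher on the log2 scale after TAC in wild type, with no overlap (exact permutation p = 0.1, the smallest possible). Levels of subunits per kilobase of exon were unequal in wild-type sham, at 325 ± 2.72 CPM per kilobase (SD, n = 3) for Pdha1, 163 ± 3.52 for Pdhb, 162 ± 6.55 for Dld, 126 ± 0.838 for Dlat and 40.4 ± 1.62 for Pdhx. The interaction was called for all 5, from 0.49 for Pdhx to 0.69 for Dlat, and on the marker scale none of these 5 kept the call.

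The kinase genes split after TAC in wild type. Pdk2, the main kinase transcript among the 3 here (chromosome 11, 95026258 to 95041354 of GRCm38), stood at 526, 506 and 524 CPM in wild-type sham and 248, 197 and 277 CPM in wild-type TAC, and in T497A at 563, 518 and 519 CPM after sham and 481, 439 and 458 CPM after TAC. It fell by 1.11 ± 0.10 in wild type (adjusted p = 4.64e-07), and the change in T497A was -0.22 ± 0.09 (adjusted p = 0.115). Pdk3, a kinase form known mainly from tissues other than heart (chromosome X, 93764607 to 93832201 of GRCm38), stood at 2.54, 2.02 and 2.87 CPM in wild-type sham, 6.13, 7.02 and 6.15 CPM in wild-type TAC, 2.86, 2.47 and 3.2 CPM in T497A sham and 3.78, 2.95 and 2.52 CPM in T497A TAC. The 3 wild-type TAC libraries lay above the 9 others, and the rise was 1.38 ± 0.18 (adjusted p = 2.23e-05), while the T497A groups overlapped (0.12 ± 0.18). Pdk1, a kinase known as a target of hypoxia signalling, stood at 254, 259 and 242 CPM in wild-type sham, 209.7, 199 and 220.4 CPM in wild-type TAC, 236, 261 and 248 CPM in T497A sham and 237, 225 and 214 CPM in T497A TAC. Its fall of 0.26 ± 0.06 in wild type (adjusted p = 0.00268) turned into 0.069 with library totals in place of TMM factors and into 0.37 on the marker scale, so its direction depends on the scaling.

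Ratios between kinases, taken per length within each library, do not depend on that scaling. Whether these and the other ratios per length follow the mix of cell types in the tissue was not tested. The log2 ratio of Pdk3 to Pdk2 was -7.66 to -7.21 in wild-type sham, -5.19 to -4.51 in wild-type TAC, -7.41 to -7.04 in T497A sham and -7.20 to -6.69 in T497A TAC. TAC thus moved it by 2.51 in wild type without overlap and by 0.32 in T497A with overlap (exact permutation p = 0.1 and 0.2, where 0.1 is the smallest possible). Even so, Pdk3 remained the scarcest of the 3, at 2.51 ± 0.198 CPM per kilobase (SD, n = 3) in wild-type TAC, beside 76 ± 12.7 for Pdk2 and 26.9 ± 1.41 for Pdk1. The log2 ratio of Pdk1 to Pdk2 rose by 0.86 in wild type (exact permutation p = 0.1) and by 0.073, within the spread, in T497A (p = 0.6 by the same permutation test). The interaction was 0.89 ± 0.13 for Pdk2 (adjusted p = 0.000258) and -1.26 ± 0.26 for Pdk3 (adjusted p = 0.00235), and 0.12 ± 0.09 for Pdk1 (adjusted p = 0.341). Pdk3 lies on chromosome X, and its level in the T497A sham libraries, without Y-linked transcripts, overlapped that in wild-type sham.

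**Figure D3:**
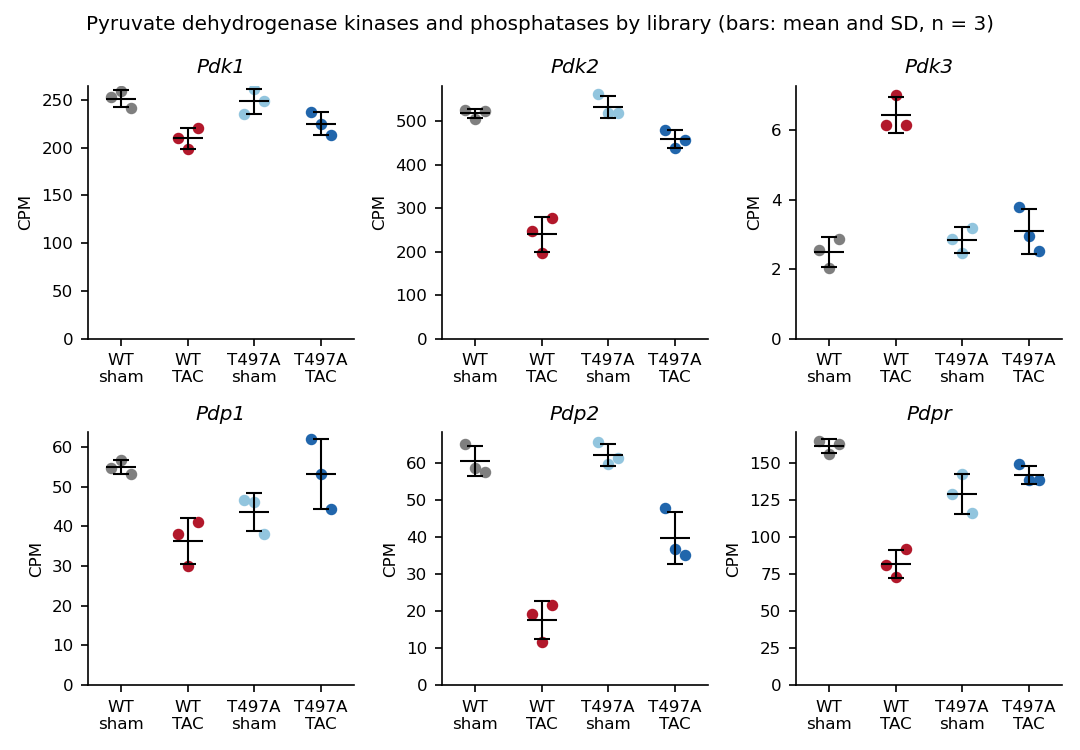
Level in CPM of the kinase genes Pdk1, Pdk2 and Pdk3 (top) and the phosphatase genes Pdp1, Pdp2 and Pdpr (bottom) in each library. Points are libraries, bars the mean and SD of 3 libraries, and each axis starts at 0. Pdk3 is higher in the 3 wild-type TAC libraries (6.13 to 7.02 CPM) than in the others, whereas Pdk2, Pdp2 and Pdpr are lowest there, and wild-type TAC overlaps T497A TAC for Pdk1 and T497A sham for Pdp1, both of which change sign after TAC in wild type on the scale of the cardiomyocyte markers.

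All 3 phosphatase genes fell after TAC in wild type, although the change of Pdp1 was 0.035 on the marker scale. Pdp2, an insulin-sensitive catalytic subunit (chromosome 8, 104591451 to 104599026 of GRCm38), stood at 65.2, 58.7 and 57.5 CPM in wild-type sham and 19.1, 11.7 and 21.6 CPM in wild-type TAC. In T497A it stood at 65.5, 59.6 and 61.1 CPM after sham and 47.8, 36.6 and 35 CPM after TAC, so that all 3 TAC libraries were low in each genotype and the wild-type ones lowest. Its fall of 1.79 ± 0.20 in wild type, or 71.1%, was the largest of the 31 genes (adjusted p = 3.29e-05; -1.17 on the marker scale). In T497A the fall was 0.64 ± 0.19 (adjusted p = 0.0356), and the interaction was 1.15 ± 0.27 (adjusted p = 0.0106).

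Pdpr, the regulatory subunit that restrains the phosphatase, stood at 165, 156 and 163 CPM in wild-type sham, 81, 73 and 92.1 CPM in wild-type TAC, 129, 143 and 116 CPM in T497A sham and 149, 139 and 139 CPM in T497A TAC. It fell by 0.98 ± 0.09 in wild type (adjusted p = 5.22e-07), and in T497A the groups overlapped (0.14 ± 0.08). Its interaction of 1.11 ± 0.12 was called (adjusted p = 2.02e-05). After sham, T497A lay below wild type by 0.32 ± 0.08 (adjusted p = 0.0392), a call that 8 of the 12 fits with 1 library left out lost. Pdp1, the calcium-stimulated catalytic subunit that predominates in muscle, stood at 54.8, 56.7 and 53.2 CPM in wild-type sham, 38, 30 and 41.2 CPM in wild-type TAC, 46.6, 46.2 and 38.2 CPM in T497A sham and 62.1, 53.2 and 44.4 CPM in T497A TAC. It fell by 0.59 ± 0.13 in wild type (adjusted p = 0.00239), whereas the T497A groups overlapped with a log2 fold change of 0.29 ± 0.13 (adjusted p = 0.139). The log2 ratio of Pdp1 to Pdp2 per length rose by 1.23 with TAC in wild type and by 0.93 in T497A, without overlap in either genotype (exact permutation p = 0.1 each, the smallest possible).

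All 12 enzymes of the cycle itself fell after TAC in wild type, within a narrow range of log2 fold changes from -1.06 (Suclg1) to -0.72 (Ogdh and Mdh2), and with marker scaling the 12 stayed below 0 while Ogdh and Mdh2 lost their call. In T497A 3 of the 12 fell, Idh3a, Idh3g and Suclg2, and the interaction was called for all 12, from 0.38 (Idh3a) to 0.88 (Suclg1). On the marker scale the interaction changed sign for Idh3a (-0.23), Idh3g (-0.018) and Ogdh (-0.066). On that scale it was called positive for Cs, Sucla2 and Suclg1 alone of the 12, and it was not called for Idh2, Idh3b, Dlst, Suclg2, Fh1 and Mdh2. Per kilobase of exon in wild-type sham, the most abundant of the 12 was Idh2 at 814 ± 31.1 CPM per kilobase (SD, n = 3), followed by Ogdh at 555 ± 20.7, Mdh2 at 339.8 ± 3.99 and Cs at 289.8 ± 6.61, and the least abundant was Suclg2 at 38 ± 1.18.

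Cs, the citrate synthase that opens the cycle, stood at 1702, 1631 and 1692 CPM in wild-type sham, 898, 747 and 959 CPM in wild-type TAC, 1635, 1636 and 1559.6 CPM in T497A sham and 1460.2, 1402 and 1484 CPM in T497A TAC. The wild-type TAC libraries lay far below the rest, with a fall of 0.95 ± 0.08 (adjusted p = 4.56e-07), and T497A changed by -0.15 ± 0.08 (adjusted p = 0.193). Idh2, the mitochondrial isocitrate dehydrogenase that makes NADPH, stood at 2198, 2051 and 2067 CPM in wild-type sham, 1141, 695 and 1291 CPM in wild-type TAC, 2316, 2295 and 2216 CPM in T497A sham and 1933, 1902 and 2038 CPM in T497A TAC. Its wild-type TAC libraries were spread widely, with replicate 2 well below the other 2, and it fell by 1.01 ± 0.17 (adjusted p = 0.000269). In T497A all TAC libraries lay below the sham libraries, with a log2 fold change of -0.22 ± 0.16 (adjusted p = 0.377).

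Idh3a, Idh3b and Idh3g encode the subunits of the NAD-dependent isocitrate dehydrogenase, a control point of the cycle. Idh3a, the catalytic subunit, stood at 699, 700.3 and 672 CPM in wild-type sham, 403, 334 and 425 CPM in wild-type TAC, 721, 761 and 789 CPM in T497A sham and 556, 550.3 and 547 CPM in T497A TAC. The TAC libraries lay below the sham libraries in both genotypes, with falls of 0.83 ± 0.08 in wild type and 0.46 ± 0.08 in T497A (adjusted p = 8.73e-07 and 0.000699). Idh3b stood at 860.4, 849.9 and 853 CPM in wild-type sham, 452, 359 and 479.5 CPM in wild-type TAC, 835, 884 and 877 CPM in T497A sham and 753, 720.2 and 762 CPM in T497A TAC, with wild-type TAC lowest and T497A TAC below both sham groups. Idh3g, like Idh3b a regulatory subunit, stood at 507, 497.04 and 495 CPM in wild-type sham, 269.9, 232 and 285 CPM in wild-type TAC, 493, 509.5 and 537 CPM in T497A sham and 414, 391 and 411 CPM in T497A TAC, in the same order of groups. Idh3b fell by 0.99 ± 0.09 in wild type and changed by -0.22 ± 0.09 in T497A (adjusted p = 5.09e-07 and 0.0825), and Idh3g fell by 0.93 ± 0.07 and 0.34 ± 0.07 (adjusted p = 1.73e-07 and 0.00319). Per length, the log2 ratio of Idh3b to Idh3a moved by -0.16 with TAC in wild type and by 0.24 in T497A, each without overlap (exact permutation p = 0.1, the smallest possible).

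Ogdh and Dlst encode the decarboxylase and the succinyltransferase of the 2-oxoglutarate dehydrogenase complex. Ogdh stood at 3143, 2917 and 3020.4 CPM in wild-type sham, 1901, 1609.9 and 1999 CPM in wild-type TAC, 2969, 3063 and 3074 CPM in T497A sham and 2725, 2605 and 2715 CPM in T497A TAC. It fell by 0.72 ± 0.08 in wild type (adjusted p = 4.27e-06) and changed by -0.18 ± 0.08 in T497A (adjusted p = 0.12). Dlst stood at 879, 835 and 865 CPM in wild-type sham, 503, 399 and 550.5 CPM in wild-type TAC, 765, 819.7 and 811 CPM in T497A sham and 708, 725 and 766 CPM in T497A TAC. Its fall in wild type was 0.83 ± 0.09 (adjusted p = 4.66e-06), and its T497A groups overlapped.

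The 250 bases before the start sites of these genes were searched for sequence motifs of nuclear regulators of mitochondrial genes. Of the 31 genes, 29 had promoter entries in RefSeq (GRCm38.p6), 38 windows in all, with Idh3a and Pdp1 unmatched. No window held TCAAGGTCA, the binding motif of the estrogen-related receptors (ERR), on either strand, nor TNAAGGTCA, which was searched after that result, whereas 0.387% and 1.14% of all 32851 windows did. The core of the NRF1 motif, GCGCATGCG, stood in the window of Ogdh alone, beside 1.64% of all 27025 genes. It begins 15 bases before one annotated start site of Ogdh and 36 bases before another, and is shown in capitals in the plus-strand stretch chr11:6292483-6292557, as the only match among the genes described. A match of letters is a description of the sequence and not a site of binding, and the lack of one says nothing of the regulator.
Ogdh: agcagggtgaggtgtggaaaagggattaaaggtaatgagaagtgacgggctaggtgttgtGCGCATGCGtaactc

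Sucla2, Suclg1 and Suclg2 encode succinyl-CoA ligase, in which Suclg1 pairs with either Sucla2 (the form that makes ATP) or Suclg2 (the form that makes GTP). Sucla2 stood at 741, 791 and 717 CPM in wild-type sham, 397, 322 and 426 CPM in wild-type TAC, 706, 721 and 734 CPM in T497A sham and 651, 634 and 652 CPM in T497A TAC. Suclg1 stood at 393, 384 and 368 CPM in wild-type sham, 192, 157 and 200.1 CPM in wild-type TAC, 339.7, 364 and 373 CPM in T497A sham and 325, 308 and 319.9 CPM in T497A TAC. For both genes the wild-type TAC libraries lay far below the 9 others. Suclg2 stood at 177, 181 and 170.0 CPM in wild-type sham, 93.5, 76.4 and 96.4 CPM in wild-type TAC, 177, 193 and 179 CPM in T497A sham and 147, 143 and 146 CPM in T497A TAC, with both TAC groups below both sham groups. In wild type Sucla2, Suclg1 and Suclg2 fell by 0.97 ± 0.09, 1.06 ± 0.08 and 0.99 ± 0.08 (adjusted p = 5.11e-07, 1.36e-07 and 1.65e-07). In T497A Suclg2 fell by 0.33 ± 0.07 (adjusted p = 0.00514), and the values of Sucla2 (-0.16 ± 0.08) and Suclg1 (-0.18 ± 0.08) did not pass the threshold (adjusted p = 0.198 and 0.12). The log2 ratio of Suclg2 to Sucla2 per length stayed within its spread in wild type (-0.01, exact permutation p = 0.6) and was -0.17 in T497A without overlap (p = 0.1 by the same permutation test).

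Fh1, fumarase, stood at 512, 505 and 498 CPM in wild-type sham, 273, 219 and 293 CPM in wild-type TAC, 502, 515 and 529 CPM in T497A sham and 447, 418 and 443 CPM in T497A TAC. It fell by 0.95 ± 0.08 in wild type (adjusted p = 6.09e-07) and lay at the threshold in T497A (-0.24 ± 0.08, adjusted p = 0.0502). Mdh2, the malate dehydrogenase that closes the cycle, stood at 1227, 1203 and 1201 CPM in wild-type sham, 762, 596 and 839.9 CPM in wild-type TAC, 1175, 1251 and 1276 CPM in T497A sham and 1107, 1118 and 1219.8 CPM in T497A TAC. It fell by 0.72 ± 0.10 in wild type (adjusted p = 2.73e-05), whereas its T497A groups overlapped.

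**Figure D4:**
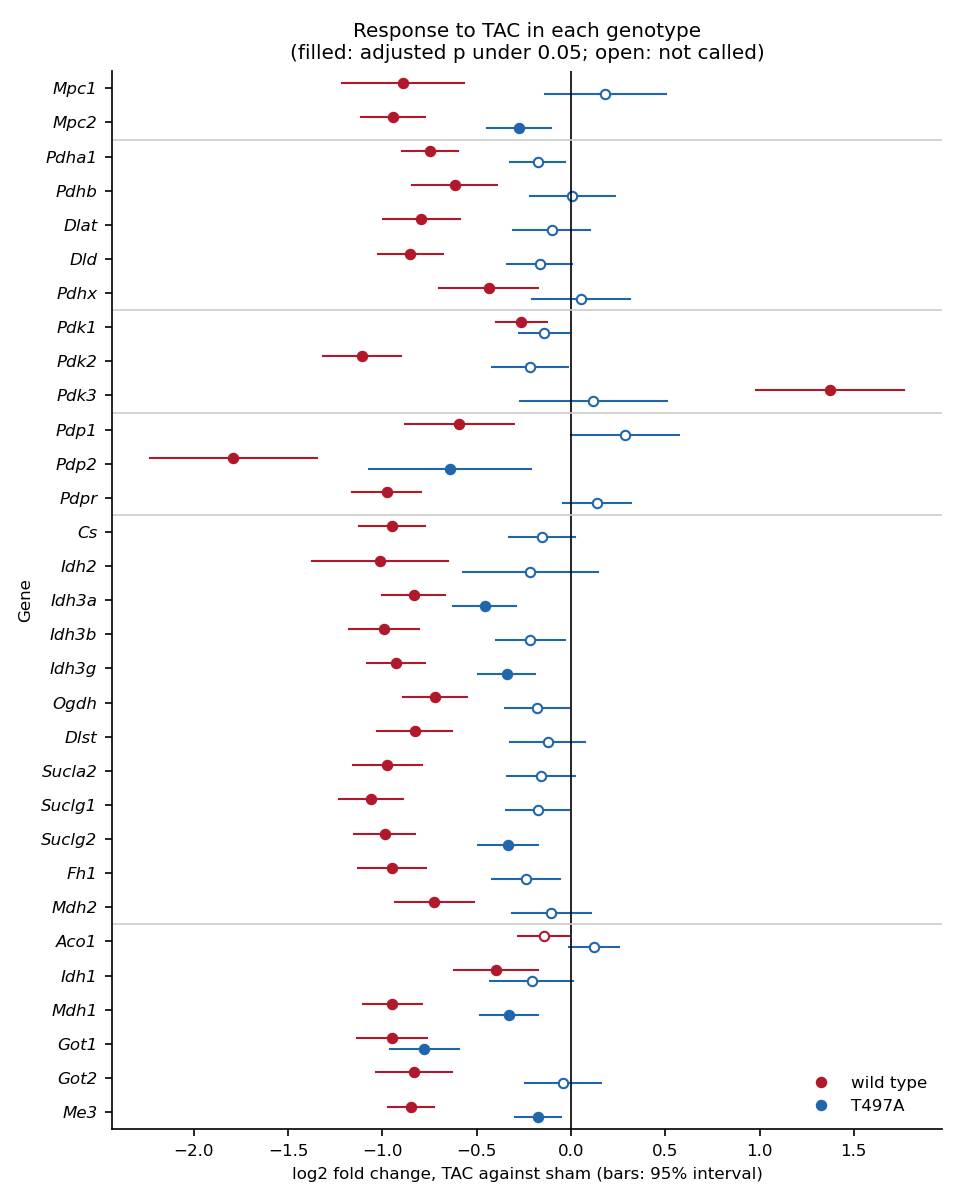
Log2 fold change of each gene for TAC against sham in wild type (red) and in T497A (blue), with bars for the 95% interval from edgeR. Filled points have an adjusted p under 0.05 and open points do not. Wild-type values run from Pdp2 at -1.79 to Pdk3 at 1.38, with a median of -0.85, and T497A values from Got1 at -0.78 to Pdp1 at 0.29, with a median of -0.17; on the marker scale Aco1, Idh1, Pdhb, Pdhx, Pdk1 and Pdp1 change sign in wild type.

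Of the 6 cytosolic and shuttle enzymes, 5 fell after TAC in wild type and 3 in T497A, and on the marker scale the sign turned for Aco1 and Idh1 in wild type. Got1, the cytosolic aspartate aminotransferase of the malate-aspartate shuttle (chromosome 19, 43499752 to 43524605 of GRCm38), stood at 920.2, 879.9 and 944 CPM in wild-type sham, 489, 405 and 528 CPM in wild-type TAC, 1188, 1069 and 1184 CPM in T497A sham and 649.7, 657 and 702 CPM in T497A TAC. The 4 groups did not overlap at all, with T497A sham highest and wild-type TAC lowest. It fell by 0.95 ± 0.09 in wild type and by 0.78 ± 0.09 in T497A, the steepest fall of the 31 genes there (adjusted p = 7.73e-07 and 2.68e-05). The interaction of 0.17 ± 0.12 was not called (adjusted p = 0.321). After sham it was higher in T497A than in wild type by 0.33 ± 0.09 (adjusted p = 0.0386), a call that 7 of the 12 fits with 1 library left out lost, and the T497A sham group is the one without Y-linked transcripts.

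Got2, its mitochondrial partner, stood at 669, 662 and 693 CPM in wild-type sham, 401, 306 and 429.8 CPM in wild-type TAC, 693, 649 and 652 CPM in T497A sham and 644, 633 and 660.0 CPM in T497A TAC. It fell by 0.83 ± 0.10 in wild type (adjusted p = 5.57e-06) and overlapped between the T497A groups (-0.042 ± 0.09). The log2 ratio of Got1 to Got2 per length, free of library scaling, was -0.11 with TAC in wild type and -0.73 in T497A, without overlap in either (exact permutation p = 0.1, the smallest possible). Mdh1, the cytosolic malate dehydrogenase of the same shuttle, stood at 2041, 1975 and 1986 CPM in wild-type sham, 1067, 929 and 1117 CPM in wild-type TAC, 1992, 2050.5 and 2126 CPM in T497A sham and 1634, 1605 and 1669 CPM in T497A TAC. It fell in both genotypes, by 0.95 ± 0.07 and 0.33 ± 0.07 (adjusted p = 1.63e-07 and 0.0042), and its log2 ratio to Mdh2 per length moved by -0.21 and -0.22, without overlap in either (exact permutation p = 0.1).

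Me3, the NADP-dependent malic enzyme of mitochondria, stood at 92.3, 86.6 and 82.1 CPM in wild-type sham, 48.5, 47 and 49.5 CPM in wild-type TAC, 88.5, 89.5 and 93.5 CPM in T497A sham and 83.3, 78.4 and 78.9 CPM in T497A TAC. Its libraries were close within each group, and it fell by 0.85 ± 0.06 in wild type (adjusted p = 5.92e-08) and by 0.17 ± 0.06 in T497A (adjusted p = 0.0362). Idh1, the cytosolic isocitrate dehydrogenase that makes NADPH, stood at 61.5, 72.2 and 66.3 CPM in wild-type sham, 54.3, 43.8 and 53.7 CPM in wild-type TAC, 65.3, 69.2 and 74.6 CPM in T497A sham and 69, 58.3 and 53.7 CPM in T497A TAC. It fell by 0.40 ± 0.10 in wild type (adjusted p = 0.00507), with values of -0.07 under library totals and 0.23 on the marker scale, and its T497A groups overlapped.

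Aco1 stood at 46, 44.3 and 48.7 CPM in wild-type sham, 42.7, 39.4 and 43.6 CPM in wild-type TAC, 44, 45 and 41 CPM in T497A sham and 47.9, 45.4 and 48.1 CPM in T497A TAC. The wild-type TAC libraries lay narrowly below wild-type sham and the T497A TAC libraries narrowly above T497A sham. The difference between genotypes after TAC (0.17 ± 0.06, adjusted p = 0.0463) turned to -0.079 under library totals and -0.41 on the marker scale. Per length, the log2 ratio of Idh1 to Idh2 was higher by 0.66 with TAC in wild type, without overlap, and by 0.0028 in T497A, with overlap (exact permutation p = 0.1 and 1, where 0.1 is the smallest possible). In wild type the ratio of cytosolic to mitochondrial transcripts was thus higher after TAC for isocitrate dehydrogenase and lower for aspartate aminotransferase and malate dehydrogenase.

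T497A after TAC was also set against wild type after sham, which avoids the T497A sham group. Of the 31 genes, 7 were lower and 0 higher, against 3.90% and 6.12% of all genes, with a median log2 difference of -0.18 beside 0.0043 over all genes. These were Mpc2 (-0.28 ± 0.08), Idh3a (-0.32 ± 0.08), Idh3g (-0.30 ± 0.07), Suclg1 (-0.27 ± 0.08), Suclg2 (-0.28 ± 0.07), Mdh1 (-0.29 ± 0.07) and Got1 (-0.45 ± 0.09). The T497A TAC libraries lay below all wild-type sham libraries in 23 of the 31 genes and above them in 0, against 16.6% and 17.0% of all genes, and 0 genes were called with a fold of at least 1.5 in either direction, against 3.10% higher and 0.514% lower. The count of calls ranged from 1 to 18 as each library was left out, with 1 call without wild-type sham replicate 1 or 2 or T497A TAC replicate 2, and 18 without wild-type TAC replicate 2.

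Of 32 other genes of the pathway, 31 were tested, under the usual scaling alone. After TAC in wild type 23 fell and 4 rose, in T497A 10 fell and 5 rose, and the interaction was called positive for 20 and negative for 3. Of all genes, 24% were called lower and 25.9% higher in the first of these comparisons, and 11.4% and 12.9% in the second. The interaction was positive for 15.3% and negative for 14.2%. The 4 subunits of succinate dehydrogenase (Sdha, Sdhb, Sdhc and Sdhd) fell in wild type, from -1.15 for Sdha to -0.60 for Sdhd. Ogdhl, a relative of Ogdh, stood at 248, 277 and 253 CPM in wild-type sham, 65.3, 61.7 and 69.7 CPM in wild-type TAC, 189, 214 and 188 CPM in T497A sham and 241, 229 and 245 CPM in T497A TAC. It fell by 1.98 ± 0.07 in wild type and rose by 0.27 ± 0.07 in T497A (adjusted p = 8.88e-10 and 0.00932), with an interaction of 2.26 ± 0.10 (adjusted p = 3.84e-09). Its log2 ratio to Ogdh per length moved by -1.26 in wild type and 0.46 in T497A (exact permutation p = 0.1 each).

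Pdk4, the kinase that fasting and fatty acids induce, stood at 567, 666 and 577 CPM in wild-type sham, 146, 158 and 145 CPM in wild-type TAC, 1834, 534 and 811 CPM in T497A sham and 807, 487 and 314 CPM in T497A TAC. It was low in all 3 wild-type TAC libraries and varied widely in both T497A groups, with T497A sham replicate 1 the highest. The fall in wild type was 2.01 ± 0.48 (adjusted p = 0.00716), and the interaction of 1.03 ± 0.65 was not called (adjusted p = 0.286). The alanine aminotransferases Gpt and Gpt2 fell by 1.74 ± 0.07 and 1.35 ± 0.11 in wild type, and Ldhb, the lactate dehydrogenase form that prevails in heart, fell by 1.14 ± 0.07. Slc25a1, which exports citrate from mitochondria, stood at 4.81, 4.81 and 4.53 CPM in wild-type sham and 10.1, 9.76 and 9.21 CPM in wild-type TAC, and in T497A at 4.82, 4.37 and 5.44 CPM after sham and 7.53, 7.71 and 5.88 CPM after TAC. It rose by 1.04 ± 0.13 in wild type and 0.53 ± 0.13 in T497A (adjusted p = 1.03e-05 and 0.0077), and the malic enzyme Me2 rose by 0.85 ± 0.10 and 0.31 ± 0.10.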

How the data were processed

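The deposited values are whole-number read counts per gene. Per the submitters' processing notes, reads were handled with Trim Galore 0.6.4, STAR 2.7.3a and featureCounts (Subread 1.6.3), with builds mm10 and GRCh38 named. For the annotation release and the strand setting, the sources used here give nothing. Per the labels' protocols, libraries came from total RNA with a KAPA mRNA kit and were read single-end. All samples carry 1 batch label.

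All 12 libraries (58932759 to 72594085 counts each) entered 1 edgeR quasi-likelihood fit (edgeR 4.0.16 in R 4.3.3, robust, TMM factors, filterByExpr) with 1 mean per group. A total of 6 contrasts, counting the interaction, gave log2 fold changes ± SE, and p-values were Benjamini-Hochberg adjusted over all 17699 genes tested. Exact two-sided permutation tests over libraries compared single values. Gene positions and exon lengths came from GENCODE M21 (GRCm38), matched by gene ID. The procedure was tested on simulated data. The 31 genes, the marker lists and the pathway list were chosen with earlier results of these data known. Every library's value is given for genes called in at least 1 comparison and for all kinases, phosphatases and isoenzyme pairs, and other pathway genes are named where called with a fold of at least 1.5. Same-numbered libraries of different groups did not deviate together (18 correlations from -0.11 to 0.07), so replicate numbers were not treated as pairs. Alternatives were DESeq2 (1.42.0) size factors and Wald test, library totals, marker scaling, limma voom (3.58.1), other filters and gene sets, robust estimation off, a replicate block, separate fits for each comparison's groups, and fits that omit 1 library. Leaving out the T497A sham group, the ratio to marker counts and the motif TNAAGGTCA were added after seeing the data.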

Additional observations from a re-analysis of the deposited data

Results flagged for a closer look

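The effect of TAC differed between wild type and T497A by the test of the interaction of genotype and surgery (edgeR's quasi-likelihood test, adjusted p under 0.05) for 28 of the 31 genes, 27 positive and 1 negative, against 15.3% and 14.2% of all genes. On the cardiomyocyte marker scale it was called for 13, with 7 positive and 6 negative. The value is the log2 fold change of TAC against sham in T497A minus that in wild type. The smallest positive values were those of Aco1 (0.27), Idh3a (0.38), Pdhx (0.49), Ogdh (0.54), Pdha1 (0.57), Idh3g (0.59), Mdh1 (0.62), Mdh2 (0.62) and Pdhb (0.63). The next were Suclg2 (0.65), Mpc2 (0.67), Me3 (0.67), Dld (0.69), Dlat (0.69), Dlst (0.70), Fh1 (0.71), Idh3b (0.77) and Got2 (0.79). The highest were Cs (0.80), Idh2 (0.80), Sucla2 (0.82), Pdp1 (0.88), Suclg1 (0.88), Pdk2 (0.89), Mpc1 (1.07), Pdpr (1.11) and Pdp2 (1.15). Pdk3 (-1.26) had a negative value. The T497A sham libraries lack Y-linked transcripts, and the summed cardiomyocyte markers were lowest in wild-type TAC, as most of these genes were. The part of either in the differences was not tested.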

How the results depend on the processing

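Counts below are of the 31 genes called. For TAC against sham in wild type the count was 30 and stayed at 30 with any library left out, and it was 24 to 31 under all alternatives run. For TAC against sham in T497A it was 8, but 20 with limma voom, 18 when fitted on only the groups compared and 5 to 18 with a library left out. For T497A against wild type after sham it was 2, but 1 with the replicate block and 0 to 2 with a library left out. For T497A against wild type after TAC it was 29, but 15 on the marker scale, and 27 to 29 with a library left out. For the interaction it was 28, but 13 on the marker scale, and 25 to 28 with a library left out. For T497A TAC against wild-type sham it was 7, but 4 with library totals, 11 with the DESeq2 Wald test, 20 with limma voom, 20 on only the groups compared and 1 to 18 with a library left out. With the replicate block the 6 counts were 30, 9, 1, 27, 27 and 5 in the order of this paragraph. Without the T497A sham group the 3 counts that remain were 30 (TAC in wild type), 28 (T497A against wild type after TAC) and 6 (T497A TAC against wild-type sham).

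The log2 values that follow changed sign under the 2 other scalings. Some values that were not called also changed sign under these or other fits. For TAC in wild type, library totals gave Aco1 0.19 and Pdk1 0.069, and marker scaling gave Aco1 0.49, Idh1 0.23, Pdhb 0.0068, Pdhx 0.19, Pdk1 0.37 and Pdp1 0.035. For T497A against wild type after TAC, library totals gave Aco1 -0.079 and Pdk1 -0.15, and marker scaling gave Aco1 -0.41, Idh1 -0.32, Idh3a -0.068, Ogdh -0.033, Pdha1 -0.0063, Pdhb -0.045, Dlat -0.0027, Pdhx -0.23, Pdk1 -0.48, Pdp1 -0.025 and Got1 -0.079. For the interaction, library totals gave Aco1 -0.031, and marker scaling gave Aco1 -0.34, Idh1 -0.41, Idh3a -0.23, Idh3g -0.018, Ogdh -0.066, Pdha1 -0.038, Pdhx -0.11, Pdk1 -0.49 and Got1 -0.43. The cause was not tested. The fit of autosomal protein-coding genes gives no value for Pdha1, Idh3g and Pdk3. Pdk3 had the fewest counts of the 31 genes, and how far depth limits its comparisons was not tested. With 3 libraries per group, the exact tests cannot go below p = 0.1.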
